A study of Mus musculus with 6 samples.

Results

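Nitric oxide synthases and NADPH oxidases are the enzymes that make nitric oxide, superoxide and hydrogen peroxide as their main products. The 10 genes described here were taken by name from a table of 55487 gene identifiers, and each was found once. They are the nitric oxide synthases Nos1, Nos2 and Nos3, the oxidase subunits Nox1, Nox4, Cybb and Duox2, the Nox1 partners Noxo1 and Noxa1, and Duoxa2, the maturation factor of Duox2. RNA was measured in terminal ileum of C57BL/6 mice on postnatal day 9, with 3 libraries labelled NEC (necrotizing enterocolitis, an inflammatory bowel disease of newborns) and 3 labelled control. The labels describe NEC induction with hyperosmolar formula given by gavage, 10 min of hypoxia (5% O2) 3 times daily for 4 days, and lipopolysaccharide by mouth (postnatal days 6 and 7, daily dose 4 mg/kg). That text also stands on the control labels, so how the controls were fed and handled is not known. Whether each library came from its own animal is not given either, and the p-values then measure only how far these libraries spread, which may be technical.

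Nitric oxide synthases turn arginine into citrulline and nitric oxide, with NADPH as electron donor and tetrahydrobiopterin as cofactor. The neuronal enzyme Nos1 serves inhibitory motor neurons of the gut wall and the endothelial enzyme Nos3 serves blood vessels, while the inducible enzyme Nos2 is made on demand under interferon and bacterial signals. NADPH oxidases pass electrons from NADPH to oxygen. Cybb is the catalytic subunit of phagocytes, and Nox4 makes hydrogen peroxide without cytosolic partners. Within the gut, Nox1 and Duox2 belong mainly to the epithelium.

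The libraries held 15.2 to 18.7 M fragments, estimated from the smallest steps of the values, which were read as FPKM (fragment numbers relative to transcript length and library depth). NEC 1 stood apart: smooth muscle markers summed to 141 FPKM there, against 671 to 678 in NEC 2 and NEC 3 and 767 to 912 in the controls. The RNA gene Rn7s1 held 42.7% of all FPKM in NEC 1 and 27.3% to 32.2% in the others, and 13461 genes reached 1 FPKM there, against 14541 to 16702. The part of these differences in the results was not tested. Xist was at 129.6 and 139 FPKM in NEC 2 and NEC 3 and at most 0.221 elsewhere, and the Y-linked Ddx3y was at 6.78 in NEC 1, at most 0.0119 in NEC 2 and NEC 3 and 7.55 to 9.89 in control. The part of sex in the results was not tested. Epithelial markers were high, with Epcam at 206 to 251 FPKM, and the ileal genes Fabp6 and Slc10a2 were at 0 to 10.4 and 1.01 to 2.30. The 5 colon markers summed to 73.1 to 137 FPKM in NEC and 236 to 267 in control, nearly all of it Mep1a, which the ileal brush border also expresses. The 2 tested were called lower, as were 30.6% of all tested genes, Mep1a with a limma log2 change of -1.34. Hoxb13 was at 0 in every library, and Car1 and Aqp8 were at most 0.0358 and 0.916 FPKM. The 8 stomach and pancreas markers summed to at most 0.0645 FPKM. Haemoglobin and other blood markers summed to 233 to 251 FPKM in NEC and 547 to 812 in control.

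Duox2 and Duoxa2 lie head to head on chromosome 2, with RefSeq start sites 673 bases apart (build GRCm38.p6). The stretch before Duoxa2, which lies between both genes, is shown with that before Noxa1, the gene with the lowest log2 change below. Each holds the 250 bases before a RefSeq start site, 5′ to 3′ on the strand of the gene, and capitals mark motif matches.
Duoxa2 promoter, chr2:122298650-122298899, plus strand: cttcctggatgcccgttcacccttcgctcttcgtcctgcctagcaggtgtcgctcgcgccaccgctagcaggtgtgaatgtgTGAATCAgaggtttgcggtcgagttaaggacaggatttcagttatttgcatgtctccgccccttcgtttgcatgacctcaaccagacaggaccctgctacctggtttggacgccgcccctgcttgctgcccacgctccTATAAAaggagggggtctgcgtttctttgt
Noxa1 promoter, chr2:25095206-25095455, minus strand: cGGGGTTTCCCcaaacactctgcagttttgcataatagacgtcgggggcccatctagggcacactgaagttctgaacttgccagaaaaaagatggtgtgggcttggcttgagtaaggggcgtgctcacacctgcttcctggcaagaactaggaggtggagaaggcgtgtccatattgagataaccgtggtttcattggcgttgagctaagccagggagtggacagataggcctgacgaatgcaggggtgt
Both strands were searched for 3 motifs, none of which overlapped another here. The TATA box, searched as TATAAA, stood at -30 to -25 from the Duoxa2 start and in 12.4% of all 32851 promoters. The AP-1 motif, searched as TGANTCA, stood at -168 to -162 from the same start and in 6.75% of promoters. An NF-kB motif stood at -249 to -240 from the Noxa1 start, and 7.25% of promoters held one. NF-kB matches also stood before Nos1 (-90 to -81) and Nox1 (-91 to -82), and an AP-1 match before Cybb (-139 to -133). RefSeq entries matched 8 of the 10 genes, Nos2 and Nos3 being named only. A match of letters is a description and shows no binding.

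All 10 genes were weakly expressed. In the controls the mean levels per length ran from Noxo1 (4.77 FPKM) through Nox4 (3.68), Noxa1 (3.28), Nos3 (2.59), Cybb (2.59), Nos1 (2.42), Nos2 (0.50), Duoxa2 (0.481) and Duox2 (0.425) to Nox1 (0.126). Control values overlapped between Nox4 and Noxa1, between Noxa1 and Cybb, among Nos3, Cybb and Nos1, and among Nos2, Duoxa2 and Duox2, so the order of these genes is not resolved.

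In NEC, Nos1, Nox4, Noxa1 and Noxo1 fell, Nos3 and Cybb did not pass, and the inducible genes Nos2, Duox2 and Duoxa2 were highest in NEC 1 without passing. Genes whose mean over the 6 libraries reached 1 FPKM were tested, and a call needed a Benjamini-Hochberg adjusted p under 0.05 in limma. Of the 10 genes 6 were tested, 4 were called lower and 0 higher. At an unadjusted limma p under 0.05 these counts were 5 and 0, against 40.7% and 9.81% of all tested genes. Among all 15806 tested genes 30.6% were called lower and 7.69% higher, and the median log2 change was -0.26, so lower calls were common. With TMM scaling, which brings that median to 0.00, 2 of the 6 were called lower, Nos1 and Noxa1 (background 14.2%), and with quantile normalization 0 (background 15.1%). All 6 log2 changes were below 0 on each of these 3 scales. Without NEC 1, 6 were called lower and without NEC 3, 4 (backgrounds 33.2% and 33.5%). Without NEC 2 (background 18.5%) or without control 1, 2 or 3 (backgrounds 6.98%, 6.35% and 13%), 1 was called, Noxa1. NEC values lay below every control value in 5 of the 6, as in 47.3% of tested genes.

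**Figure D1:**
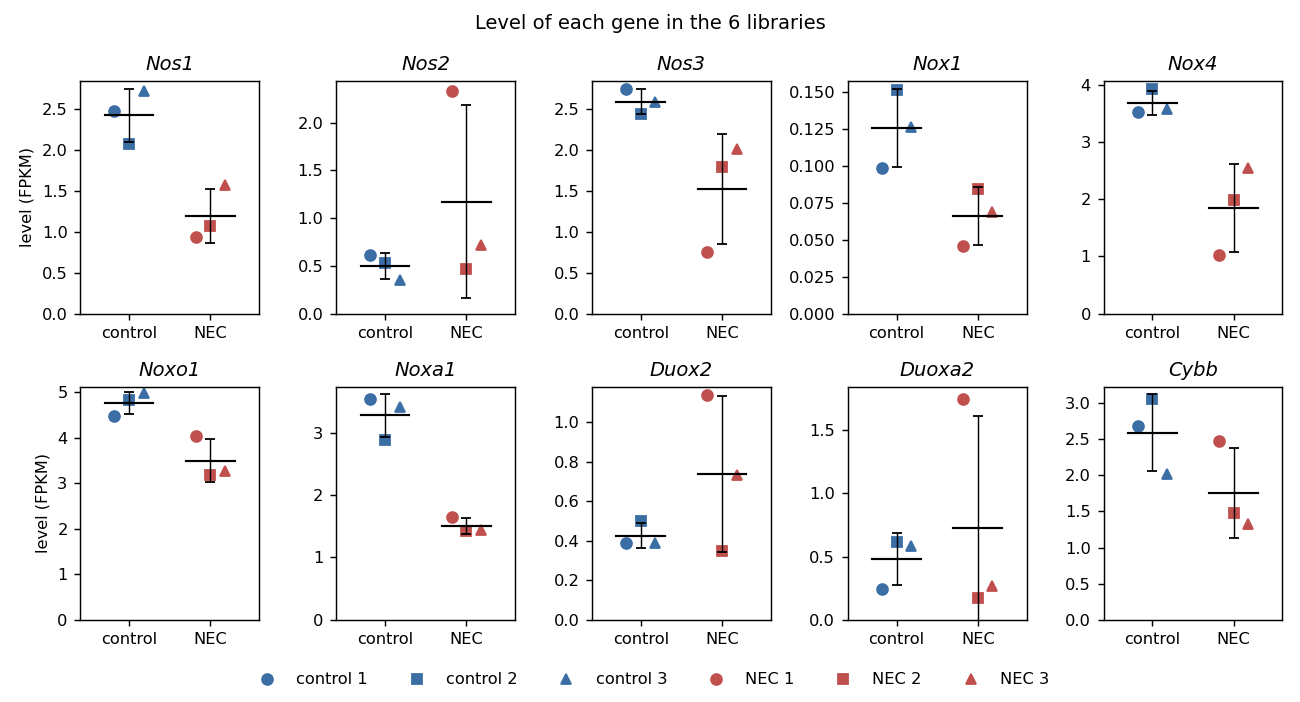
Level in FPKM (vertical axes from 0, 1 scale per gene) in the 3 control (blue) and 3 NEC (red) libraries, with the mean (line) and SD (bars, cut off at 0). Nos1, Nos3, Nox1, Nox4, Noxo1 and Noxa1 lie lower in every NEC library than in any control, while Nos2, Duox2 and Duoxa2 are highest in NEC 1.

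**Figure D2:**
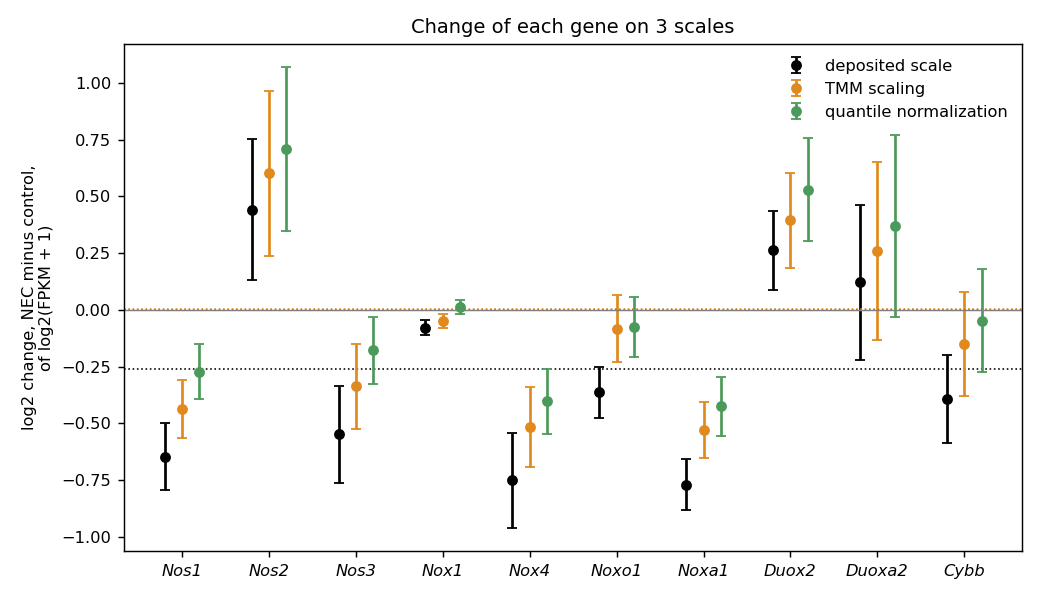
Log2 change (vertical axis, NEC minus control, of log2(FPKM + 1)) with its standard error on the deposited scale, with TMM scaling and with quantile normalization; dotted lines mark the median of all tested genes, and Nos2, Nox1, Duox2 and Duoxa2 come from the fit without a filter. Noxa1 has the lowest value on each scale, -0.77 on the deposited one, and Nox1 changes sign with quantile normalization.

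Among the synthases, Nos1 (chromosome 5, 117781032 to 117958840, mm10) was at 0.942, 1.07 and 1.57 FPKM in NEC 1, 2 and 3 and at 2.47, 2.08 and 2.72 in control 1, 2 and 3. All NEC libraries lay below all controls, with a ratio of means of 0.493. The log2 change was -0.65 (SE 0.15, limma adjusted p = 0.0195). The call was lost with quantile normalization (-0.27, adjusted p = 0.134), without NEC 2 (0.0560) and without control 1, 2 or 3 (0.0718, 0.0545 and 0.0655). Enteric neuron markers moved with it: 9 of 10 lay lower in every NEC library than in any control, as did 47.3% of all tested genes. Their summed level was 38.7 to 54.9 FPKM in NEC and 73.3 to 81.5 in control. Of 8 tested markers 6 fell (background 30.6%) and 0 rose, among the falls the filament gene Prph by 0.95 and Uchl1 by 1.03 on the log2 scale. The number called lower was 4 without NEC 2, 2, 2 and 4 without control 1, 2 and 3, and 4 with quantile normalization. With TMM scaling 5 were called lower and 1 higher. Nos1 made up 2.43%, 2.08% and 2.86% of the summed marker level in NEC and 3.20%, 2.55% and 3.71% in control. The marker Ret, at 24.7 to 26.9 FPKM in all libraries, held a large part of that sum. With each marker weighted equally on the log2 scale, Nos1 lay -0.50, -0.90 and -0.68 from the mean of the markers in NEC and -0.78, -1.01 and -0.58 in control. By both measures the groups overlapped. In bulk tissue, fewer cells of a type and less RNA per cell cannot be told apart.

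Nos3 (chromosome 5, 24364810 to 24384474) was at 0.753, 1.79 and 2.01 FPKM in NEC and at 2.74, 2.44 and 2.59 in control. The NEC libraries lay lower without overlap, and NEC 1 was lowest. The log2 change of -0.55 (SE 0.21) did not pass (limma adjusted p = 0.0806), and did without NEC 1 (-0.31, adjusted p = 0.0400) and without NEC 3 (-0.70, 0.0467). Endothelial markers summed to 30.1 to 40.4 FPKM in NEC and 47.9 to 52.0 in control. Of the 8, 4 fell, including the adhesion molecules Pecam1 (-0.80) and Cdh5 (-0.48), and 0 rose (background 30.6% lower). By library, 5 lay lower in every NEC library than in any control, as did 47.3% of all tested genes, and 1 lay higher. The count of falls was 2, 0 and 1 without control 1, 2 and 3, 1 with TMM scaling and 2 with quantile normalization. With either scaling, and without NEC 1, 1 marker was called higher. Nos3 was 2.50%, 4.72% and 4.99% of the marker sum in NEC and 5.73%, 4.70% and 5.24% in control. Relative to these markers NEC 2 and NEC 3 lay within the controls and NEC 1 below them. Nos3 exons share 294 bases with the autophagy gene Atg9b on the other strand, which was at 4.24, 2.30 and 0.628 FPKM in NEC and 0.237, 0.230 and 0.292 in control. The strand setting of the counting is not given, so reads from the shared bases cannot be told apart.

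Nos2 (chromosome 11, 78920787 to 78960254) was at 2.33, 0.470 and 0.716 FPKM in NEC and at 0.617, 0.532 and 0.351 in control. NEC 2 lay within the controls, NEC 3 just above them, and NEC 1 at 3.25 times the highest of the other 5 libraries. Its mean was under the filter. In the fit without a filter, where 3.17% of 33583 genes were called higher and 15.3% lower, its log2 change of 0.44 (SE 0.31) did not pass (limma adjusted p = 0.375), and it was 0.09 without NEC 1 (0.633). Nos2 held 57.9%, 14.1% and 16.6% of the summed FPKM of the 3 synthases in NEC and 10.6%, 10.5% and 6.21% in control. That sum was 4.02, 3.34 and 4.30 FPKM in NEC and 5.83, 5.05 and 5.66 in control. The inducible form was thus the most abundant synthase in NEC 1, a library whose synthase total lay below every control.

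**Figure D3:**
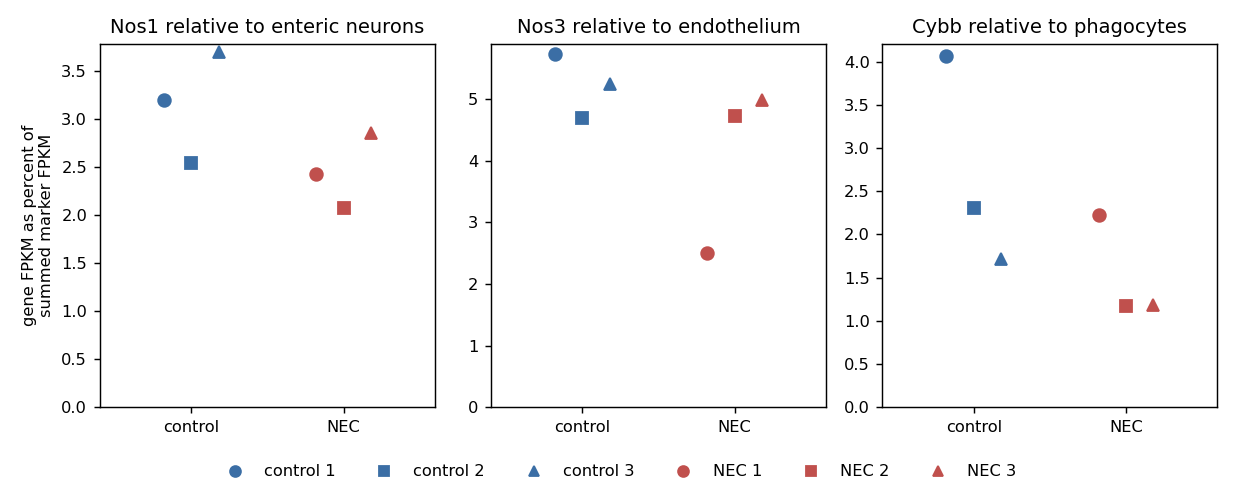
FPKM of Nos1, Nos3 and Cybb as a percent of the summed FPKM of enteric neuron, endothelial and phagocyte markers (vertical axes from 0), by library. For each gene at least 1 NEC library lies within the range of the controls, and Nos3 in NEC 1 lies below all others.

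Among the oxidases, Nox4 (chromosome 7, 87246096 to 87398710) was at 1.02, 1.98 and 2.55 FPKM in NEC and at 3.53, 3.92 and 3.59 in control. The groups did not overlap, and NEC 1 was lowest. The log2 change was -0.75 (SE 0.21, limma adjusted p = 0.0317). The call was lost with TMM scaling (-0.52, adjusted p = 0.0685), quantile normalization (-0.40, 0.0802), without a filter (0.0587), without NEC 2 (0.0642) and without control 1, 2 or 3 (0.0867, 0.10 and 0.0826). Nox4 needs the membrane partner Cyba, which was at 18.7 to 22.0 FPKM in NEC and 22.0 to 23.0 in control and did not pass (adjusted p = 0.304). Poldip2, a Nox4-binding protein, fell by 0.41 on the log2 scale, a call lost with TMM scaling (adjusted p = 0.324), quantile normalization (0.105), without NEC 2 (0.0726) and without any 1 control (up to 0.113).

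The Nox1 complex showed more RNA of its partners than of its catalytic subunit. Nox1 (chromosome X, 134086421 to 134221956) was at 0.0454, 0.0847 and 0.0687 FPKM in NEC and at 0.0984, 0.152 and 0.127 in control, lower in NEC without overlap. Under the filter and fitted without it, its log2 change of -0.08 (SE 0.03) did not pass (limma adjusted p = 0.165). Its exons share 399 bases with Cstf2 on the other strand, a gene at 2.77 to 4.37 FPKM. Noxa1, the activator subunit (chromosome 2, 25085667 to 25095149), was at 1.65, 1.43 and 1.44 FPKM in NEC and at 3.53, 2.89 and 3.41 in control. The NEC values lay close together and below all controls, with a ratio of means of 0.459. Its log2 change of -0.77 (SE 0.11, limma adjusted p = 0.00692) passed in 14 of the 15 alternatives that tested it, the exception being quantile normalization (-0.43, 0.0540). Its promoter is 1 of the 3 with an NF-kB match given above.

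Noxo1, the organizer subunit (chromosome 17, 24696234 to 24700529), was at 4.04, 3.18 and 3.27 FPKM in NEC and at 4.49, 4.83 and 4.98 in control. NEC 1 lay nearest to the controls, with no overlap. The log2 change of -0.36 (SE 0.11, limma adjusted p = 0.0433) lost its call in 10 of 15 alternatives and was -0.08 with TMM scaling (adjusted p = 0.689). Those 10 include leaving out NEC 2 (0.115), NEC 3 (0.0861) and control 1, 2 or 3 (0.101, 0.134 and 0.130). Noxo1 exons share 2122 bases with Tbl3 on the other strand, at 3.12 to 4.44 FPKM, and how much of the Noxo1 value is Tbl3 reads cannot be told apart. The FPKM ratio of Noxo1 to Noxa1 was 2.45, 2.23 and 2.27 in NEC and 1.27, 1.67 and 1.46 in control, higher in every NEC library than in any control.

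Cybb, the phagocyte oxidase (chromosome X, 9435252 to 9487771), was at 2.47, 1.47 and 1.33 FPKM in NEC and at 2.69, 3.06 and 2.01 in control. NEC 1 lay within the controls, and NEC 2 and NEC 3, the libraries with Xist, lay below them. Cybb and Nox1 are both X-linked, and Nox1 was lowest in NEC 1 (0.0454 FPKM). The part of sex in either gene was not tested. The log2 change of -0.39 (SE 0.19) did not pass (limma adjusted p = 0.148), and did without NEC 1 (-0.57, 0.0284). Of its cytosolic partners, Ncf1 was at 0.219, 0.351 and 0.446 FPKM in NEC and 0.589, 0.926 and 0.733 in control, and Ncf4 at 0.553 to 0.866 and 0.411 to 0.746. Ncf1 was lower in every NEC library, while Ncf4 overlapped. Of 7 tested genes for subunits and assembly, 1 rose and 2 fell (7.69% and 30.6% of all tested genes). With TMM scaling 1 was higher and 0 lower, and none was called in either direction with quantile normalization, without NEC 2 or without any 1 control. The GTPase Rac1, which switches the complexes on, rose by 0.33, and Cybc1, a chaperone of Cybb, fell by 0.33 on the log2 scale (-0.03 with TMM scaling). Rac2, the blood cell form, had -0.41 without passing (adjusted p = 0.0898). Phagocyte markers summed to 111 to 125 FPKM in NEC and 66.2 to 133 in control. Of 10 tested 0 rose and 1 fell, the macrophage receptor Adgre1 (-0.87), a call lost with quantile normalization (0.0593) and without NEC 2, control 1 or control 2. With TMM scaling 2 markers were called higher and 1 lower, and with quantile normalization 1 higher and 0 lower. By library, 5 of the 11 listed lay lower in every NEC library than in any control and 1 lay higher. Of all tested genes 47.3% lay lower in this way, and the share that lay higher is not reported here. Cybb was 2.23%, 1.18% and 1.18% of that sum in NEC and 4.06%, 2.30% and 1.71% in control. Control 1 had the highest share, and the neutrophil gene S100a8 was at 1.69 FPKM there against 23.1 to 27.4 elsewhere. The part of these markers in the Cybb values was not tested.

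Duox2 (chromosome 2, 122279247 to 122298449) was at 1.14, 0.348 and 0.730 FPKM in NEC and at 0.386, 0.498 and 0.390 in control. NEC 1 and NEC 3 lay above all controls and NEC 2 below them. Without a filter the log2 change of 0.26 (SE 0.17) did not pass (limma adjusted p = 0.343). Duoxa2 (chromosome 2, 122298900 to 122302885) was at 1.74, 0.173 and 0.269 FPKM in NEC and at 0.241, 0.619 and 0.581 in control. Its single annotated transcript allowed whole fragments to be recovered, 47, 5 and 8 in NEC and 6, 15 and 15 in control. The exact 95% Poisson interval of NEC 1 was 1.28 to 2.32 FPKM, and the highest upper bound among the others was 1.02, with counting error alone covered. NEC 2 and NEC 3 did not lie above the controls, and the log2 change of 0.12 (SE 0.34, adjusted p = 0.815) became -0.27 without NEC 1. Duoxa2 exons share 682 bases with Duoxa1 on the other strand, which was at 0 in 5 libraries and 0.0189 FPKM in control 3. Duox1 was at 0.168 FPKM in NEC 1 and at most 0.0820 elsewhere, and Nox3, an inner ear oxidase, was at 0 throughout.

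Nos2, Duox2 and Duoxa2 all had their highest value in NEC 1, at 3.25, 1.56 and 2.82 times the next library. A ratio of at least 1.5 was found for NEC 1 in 3% of the 18974 genes averaging 0.5 FPKM or more. That limit was set after these values were seen. Duox2 and Duoxa2 had medians of 0.444 and 0.425 FPKM over the 6 libraries and reached the average of 0.5 only with NEC 1. The 3% therefore gives no measure of how rare their ratios are. Of 9 epithelial genes known to rise with Duox2 under microbial contact, 6 were tested and 0 passed in either direction. Among all tested genes 7.69% were called higher and 30.6% lower. Without NEC 2, 2 passed as higher, Reg3b and Reg3g, as did 799 of all 15806 tested genes. With all 6 libraries, the count at an unadjusted limma p under 0.05 was 0 higher and 0 lower. By library, 8 of the 9 were highest in NEC 1, but the share of all genes highest in that library was not counted. The acute-phase gene Saa3 was at 14.3 FPKM in NEC 1 and at most 0.468 elsewhere, and the nucleic acid sensor Zbp1 at 6.49 against at most 0.596. The antimicrobial lectin Reg3g was at 109, 1.6 and 13.7 FPKM in NEC and 1.84 to 2.48 in control, and Reg3b at 249, 4.83 and 156 and 26.5 to 36.1. NEC 2 lay below all controls for both lectins. The exception was Pigr, the antibody transporter, at 11.6 FPKM in NEC 1 and 14.0 to 19.6 in the others. Related genes within this list may share reads, and how far they did was not tested.

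**Figure D4:**
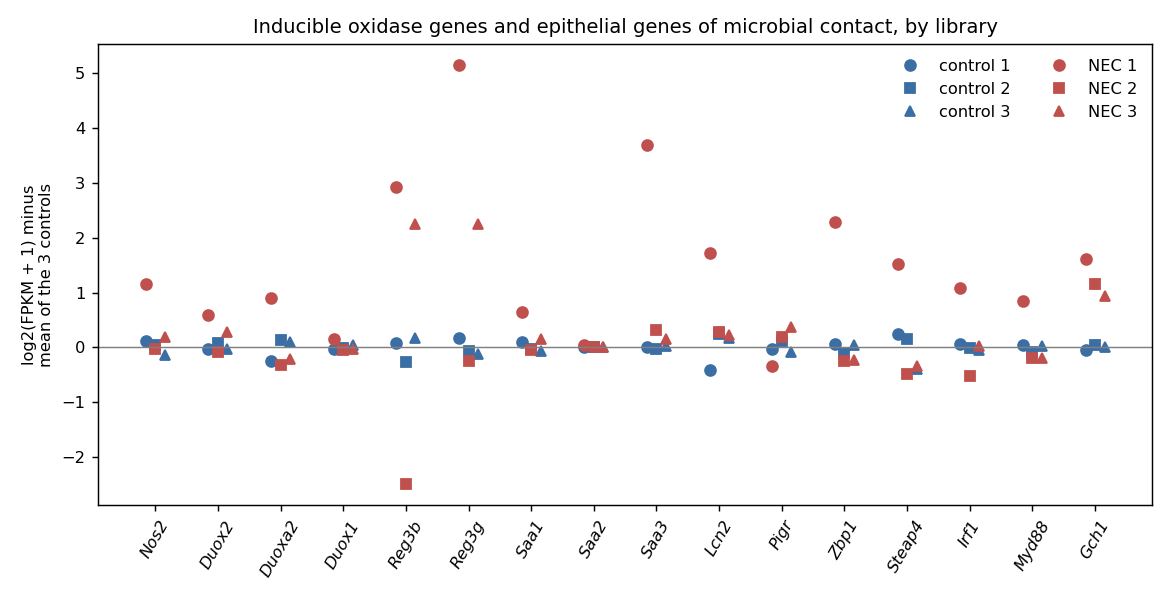
Log2(FPKM + 1) minus the mean of the 3 controls (vertical axis) in each library for Nos2, the Duox genes, the 9 epithelial genes, and Irf1, Myd88 and Gch1. NEC 1 (red circles) stands above the other libraries for Nos2, Duox2, Duoxa2, Saa3 and Zbp1, while all 3 NEC libraries lie above the controls for Gch1.

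Of 18 genes that induce Nos2 or Duox2 or pass on the signal, 12 were tested. Of these 3 rose and 0 fell, against 7.69% and 30.6% of all tested genes. With TMM scaling 5 were higher, as were 2638 of all 15806 tested genes, and without NEC 3 5 were, as were 1250. There were 2 higher with quantile normalization, without NEC 2 and without each control in turn, and 3 higher and 1 lower without NEC 1, the lower one being Nfkb1 (-0.20, adjusted p = 0.0493). The tumour necrosis factor receptor Tnfrsf1a went from 24.4 ± 1.17 to 53.2 ± 13.9 FPKM (SD, n = 3 each; limma log2 change 1.06, adjusted p = 0.00968). The interleukin 22 receptor Il22ra1 rose by 0.63 and the interferon gamma receptor chain Ifngr2 by 0.28, the latter call being lost with quantile normalization (0.0631), without NEC 2 and without any 1 control. The ligands were near 0: Ifng was at most 0.121 FPKM, Tnf at most 0.263, Il22 at most 0.160, and Il17a at 0 throughout. The interferon response factor Irf1 and the Toll-like receptor adaptor Myd88 were highest in NEC 1 and did not pass. Irf1 was at 18.6, 5.42 and 8.40 FPKM in NEC and 7.96 to 8.61 in control, and Myd88 at 11.6, 5.10 and 5.09 and 5.64 to 6.22.

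The genes around the enzymes were read from 10 pathway lists with 102 genes, of which 80 were tested, 23 rose and 18 fell. Over all tested genes 7.69% were called higher and 30.6% lower, so falls in these lists were no more common than elsewhere. These shares are the background for each list below too. Of the 41 calls in the lists, 10 held with both other scalings and without each library in turn. Held as higher were Gch1, Me1, Pgd, Idh1, H6pd, Sod1, Tnfrsf1a and Il22ra1, and as lower Qdpr and Gpx3. How many of all tested genes held in this way was not counted. Without control 1, 2 and 3 the lists together had 8, 8 and 13 higher and 2, 2 and 7 lower calls, and without NEC 2 14 and 12.

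Of 8 genes for the cofactor tetrahydrobiopterin, 2 rose, 1 fell and 5 did not pass. Gch1, the rate-limiting enzyme of its synthesis, was at 36.7, 26.7 and 22.6 FPKM in NEC and at 11, 11.7 and 11.5 in control (limma log2 change 1.23, SE 0.17, adjusted p = 0.00655). Every NEC value lay above every control, NEC 1 highest. Qdpr, which recycles the used cofactor, was at 12.0, 15.0 and 19.2 FPKM in NEC and at 38.0, 40.0 and 44.3 in control (limma log2 change -1.37, SE 0.17, adjusted p = 0.00506). The ratio of Gch1 to Qdpr was 3.06, 1.79 and 1.18 in NEC and 0.290, 0.292 and 0.259 in control. The gene of synthesis thus stood above that of recycling in each NEC library and below it in each control. Gchfr, the feedback regulator of Gch1, rose by 0.33, a call lost without NEC 2 (0.0812) and without any 1 control (up to 0.120). With TMM scaling 3 genes were higher and with quantile normalization 4.

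Of 8 tested genes of arginine supply and competing use, 4 rose and 2 fell. Slc7a7, a carrier of arginine, rose by 0.55, Ass1, which helps rebuild arginine from citrulline, by 0.36, the polyamine enzyme Odc1 by 0.34 and Ddah1 by 0.39 on the log2 scale. Ddah1 and Ddah2 break down methylarginines, which inhibit the synthases, and they moved apart: Ddah1 went from 7.00 ± 0.101 to 9.54 ± 1.43 FPKM and Ddah2 from 10.5 ± 0.646 to 3.14 ± 1.57 (SD, n = 3 each; limma log2 change -1.55, adjusted p = 0.0117). Prmt1, a protein arginine methyltransferase, fell by 0.78. No gene of this list was called without control 1 or control 2, and 1 higher and 2 lower were called without NEC 2, 2 higher and 2 lower without NEC 3 and 2 higher and 1 lower without control 3. Under the filter, the carrier Slc7a2 was at 0.312, 0.309 and 0.551 FPKM in NEC and 1.67, 0.966 and 1.58 in control, and the arginase Arg1 at 0.0225, 0.0420 and 0.0204 and 0.586, 0.476 and 0.400, both lower in every NEC library.

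Of 10 genes that bind or steer the synthases, 2 rose and 3 fell, the falls near the 30.6% of all tested genes. With TMM scaling 2 were higher and 0 lower. Nostrin, which traffics Nos3, rose by 0.43, and Hsp90ab1, Nosip and Calm2 fell by 0.64, 0.36 and 0.97. No gene of this list was called without control 1, 2 or 3, and without NEC 2 there were 0 higher and 1 lower. On the receiving side, 5 of 8 tested cyclic GMP genes fell and 2 rose. Gucy1a1 and Gucy1b1, the subunits of the nitric oxide receptor, went from 9.77 ± 1.29 to 3.86 ± 1.70 and from 9.49 ± 1.29 to 4.85 ± 2.06 FPKM (SD, n = 3 each; limma adjusted p = 0.0196 and 0.0459). The kinase Prkg1, the phosphodiesterase Pde5a and the kinase substrate Mrvi1 fell by 0.92, 0.84 and 1.0, while the epithelial kinase Prkg2 rose by 0.48 and Vasp, another substrate, by 0.34. There were 2 higher and 3 lower with TMM scaling, 1 higher and 3 lower with quantile normalization, 1 higher and 3 lower without NEC 2, 1 higher and 3 lower without control 3 and none without control 1 or control 2. The genes that fell are known from smooth muscle, whose marker sums are given above. Of its 6 markers 0 were called by limma and 0 were lower at an unadjusted p under 0.05. Without NEC 1, 3 were called lower. The median log2 change of the 6 markers was -0.94, against -0.26 for all tested genes. By library, 4 lay lower in every NEC library than in any control, as did 47.3% of all tested genes. The part of muscle in the falls of the cyclic GMP genes was not tested.

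Of 6 genes listed for the supply of NADPH, the electron source of both families, 5 were called higher and 0 lower. Me1, the malic enzyme, was at 50.3, 56.7 and 29.9 FPKM in NEC and 6.03, 5.19 and 3.83 in control, a log2 change of 2.92. Pgd rose by 1.08, Idh1 by 1.08, H6pd by 0.62 and Taldo1, a pentose phosphate enzyme that does not itself make NADPH, by 0.57, and G6pdx did not pass (0.368). The list's median log2 change was 0.85, against -0.26 for all tested genes, and 4 to 6 of its genes were called higher in each alternative. Of 14 genes that remove superoxide and hydrogen peroxide, 4 rose and 4 fell. Catalase (Cat) went from 97.9 ± 3.56 to 172 ± 33.0 FPKM (SD, n = 3 each), Sod1 rose by 0.67, Sod3 by 0.60 and Gpx4 by 0.48, while the secreted Gpx3 fell by 1.29, Prdx4 by 1.36, Prdx2 by 0.53 and Prdx1 by 0.38. Prdx1 and Prdx2 were not called with TMM scaling (0.781 and 0.0844). The list had 1, 1 and 2 higher and 1, 1 and 1 lower without control 1, 2 and 3, and 2 higher and 4 lower without NEC 2. Of the peroxidases that use hydrogen peroxide, Lpo, Mpo and Epx were at most 0.115 FPKM, and the matrix peroxidase Pxdn fell by 1.28, a call lost without control 1 (0.0513) or control 2 (0.0545).

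**Figure D5:**
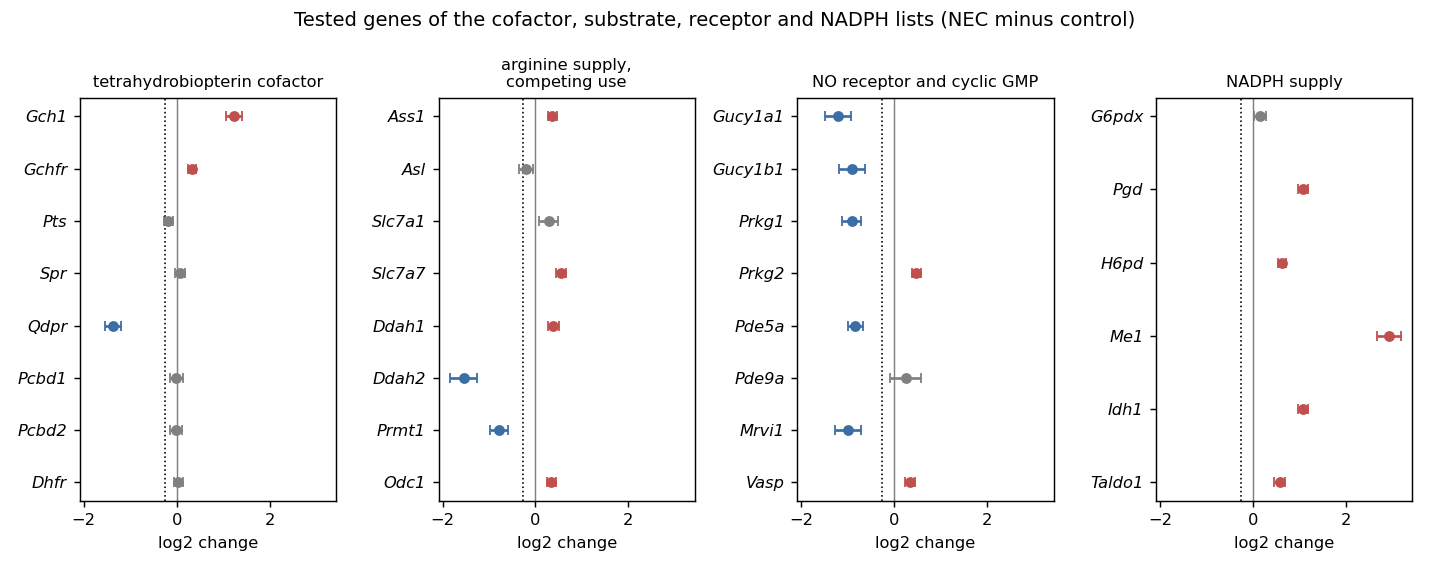
Log2 change (horizontal axes, NEC minus control, of log2(FPKM + 1)) with its standard error for the tested genes of 4 lists, in red where called higher, blue where called lower and grey where not called; the dotted line is the median of all tested genes. Gch1 and Qdpr lie on opposite sides at 1.23 and -1.37, and Me1 has the highest value at 2.92.

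The protein-coding genes most like each tested gene, by Pearson correlation of log2(FPKM + 1) over the 6 libraries, were Macrod1 and Psmg3 for Nos1 (0.999 and 0.998), Mapre1 and Trmt10c for Nos3 (0.9996 and 0.9989), and Dip2c and E2f1 for Nox4 (0.9996 and 0.9994). They were Atp9b and Plpp3 for Noxo1 (0.995 and 0.992), Ebf4 and Agap2 for Noxa1 (0.994 and 0.993), and Tnfaip8 and Fam241a for Cybb (0.991 and 0.985). The 6 points share group and library depth, and no test is attached. Among the 10 genes the highest correlations were 0.97 for Nos3 and Nox4 and 0.92 for Nos2 and Duox2.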

How the data were processed

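RNA of 6 libraries was measured. The submitters' processing notes name HISAT2, SAMtools 1.3.1 and Cuffdiff, and build mm10. Annotation, strand setting and other versions are not given in the sources used here. Values, deposited with no named unit, were taken as FPKM made by the authors, which is what Cuffdiff gives; for single-transcript genes 98.5% to 98.8% of low values fell on whole fragments (within 0.05). Symbols and coordinates came from GENCODE M21 for 55227 of 55487 identifiers. No value column was left unused. Column names starting with N were read as NEC.

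Groups were compared with limma 3.58.1 (R 4.3.3; moderated test, trended variance) on log2(FPKM + 1), which understates changes of low genes. The filter was a mean of 1 FPKM, p-values were adjusted by Benjamini-Hochberg over all tested genes, and genes under the filter were fitted without it. An exact permutation test of 3 against 3 libraries cannot give a p under 0.1, and none was run. The code was tested on simulated data. Alternatives were pseudocounts of 0.1 and 0.01, other filters, TMM without weights, quantile normalization, sample weights, no trend, a replicate block and each library left out; a scaling that leaves out the 100 most abundant genes was chosen after seeing the data. The 10 genes, 10 pathway lists and 8 marker lists were chosen with earlier results of these data known. Named were the 10 genes, other subunits, up to 4 genes of smallest p in each list, genes called against their list's majority, and 2 similar genes each; any further list gene was named after its values were seen. Some list genes are counted but not reported here by name. Plots used Python 3.11.15 and matplotlib 3.10.9.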

Additional observations from a re-analysis of the deposited data

How the results depend on the processing

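With each library left out in turn, 481 to 1584 of all tested genes were called higher and 1004 to 5302 lower, 1 to 6 of the 10 genes were lower and 0 higher, and the pathway lists had 8 to 25 higher and 2 to 19 lower. With TMM scaling 2638 genes were higher and 2252 lower, 2 of the 10 genes were lower, and 28 pathway genes were higher and 8 lower. Quantile normalization gave 2202 and 2387 genes and 0 of the 10, with 2 lower at an unadjusted limma p under 0.05 (background 22.7%). Without a filter 2 of the 10 genes were lower, and at a mean of at least 5 FPKM, where 1746 genes were lower, none of the 10 could be tested. Sign changes, none of them called, were those of Duoxa2 at a pseudocount of 0.01 (-0.020), with sample weights (-0.22), without NEC 1 (-0.27) and without control 1 (-0.0012), and of Nox1 with quantile normalization (0.014). The Duoxa2 change ran from -0.27 to 0.34 over the left-out libraries. Causes were not tested.

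With the replicate number as a block, 856 genes were higher and 3230 lower, 3 of the 10 genes were lower (Noxo1 at adjusted p = 0.106) and the pathway lists had 14 higher and 13 lower. Deviations from the group mean correlated at -0.05, -0.01 and -0.07 for libraries with the same number, and at -0.03 to 0.08 for different numbers. With 3 libraries per group these deviations cancel within each group, and NEC 1 stands apart. Whether the numbers pair the libraries is therefore not settled. Low levels limit Nox1, Duox2, Duoxa2 and Nos2. Over all tested genes the median SD was 0.21 within NEC and 0.09 in control (log2 scale).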
